A study of Mus musculus with 4 samples.

Results

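The iron uptake and storage genes are 8 genes that bring transferrin-bound iron into cells, store it and sense it. They were read by the gene name of each probe in the spot files, which gave 13 probes of 40557 gene probes, and 8 of 29319 genes. RNA of sorted mouse marrow cells was measured on 4 Agilent 1-colour arrays, 1 for each of 4 groups. LSK cells, the marrow fraction without lineage markers that carries Sca-1 and c-kit and contains the blood stem cells, were taken at day 10 from transplanted recipients and at day 0 from healthy mice. CD45-negative cells, which the labels call stromal or niche cells, were taken at the same 2 times. The recipients had received 700 cGy of radiation, a dose described as sublethal, and then 30000 LSK cells from CD45.2 donors. They carried the CD45.1 form of that leukocyte antigen. Mice of all 4 groups are labelled C57BL6/J and 7 weeks old. The number of mice behind each array is not stated in the labels, and host marrow cells can survive such a dose. The design text names donor stem cells as the sorted LSK cells, whereas the sorting protocol gives no donor gate for them. That protocol names the stromal sort CD45.1-negative, a gate that would not by itself remove CD45.2 donor cells, and the other labels give CD45-negative.

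Cells take up iron when transferrin, the iron carrier of plasma, binds its receptor and is drawn into endosomes, where the iron is released, reduced and moved to the cytosol. Iron not used at once is kept inside ferritin, a shell of heavy and light chains. The iron regulatory proteins sense cytosolic iron and bind hairpins in mRNAs, so that in iron-poor cells they stabilise the receptor's mRNA and block ferritin translation. In bone marrow the largest users of this route are the erythroblasts, which make haem for haemoglobin.

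The probes themselves show what was read for the genes on which the results turn. The letters are those of the array design, 5′ to 3′, either the whole probe or the stretch named. The Tfrc probe is given by its opening bases. Slc11a2 has 3 probes, the brightest of which holds the polyadenylation signal letters AATAAA, in capitals. The other 2 follow in order of brightness. The 3 Ireb2 probes are given whole because they did not give the same sign in every comparison. The Ftl1 probe is given from its first ATG, in capitals.
Tfrc, opening of the probe: tgagcaagatcacattaacaaagactagtt
Slc11a2 probe 1, from AATAAA: AATAAAgttcatgcttaatagct
Slc11a2 probe 2, opening of the probe: tgttccctattcacttgattgtcactgaaa
Slc11a2 probe 3, whole: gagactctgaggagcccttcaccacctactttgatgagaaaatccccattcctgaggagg
Ireb2 probe 1, whole: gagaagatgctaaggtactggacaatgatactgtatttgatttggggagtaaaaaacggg
Ireb2 probe 2, whole: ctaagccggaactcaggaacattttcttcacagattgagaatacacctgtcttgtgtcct
Ireb2 probe 3, whole: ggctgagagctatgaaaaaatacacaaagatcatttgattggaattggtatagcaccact
Ftl1, from the first ATG: ATGacctctcagattcgtcagaatt

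A level is the log2 processed spot signal after subtraction of that array's 75th percentile, and a gene with several probes is represented by the brightest. Differences between days were taken as day 10 minus day 0, those between populations as LSK minus CD45-negative. With 1 array per group no difference has a standard error or a test. A difference of at least 2-fold, 1 on the log2 scale, was counted as a size. Within an array, 50 probes spotted several times varied with an SD of 0.152 to 0.22, which covers the array surface and not the mice. The scanner software flagged 47.6% to 56.6% of the 61190 probes as well above background. All 13 probes except the dimmer Aco1 probe passed that flag on all 4 arrays. The Fth1 probe was saturated on both CD45-negative arrays. All 4 arrays lay on 1 slide.

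The sorts were checked against their markers before the iron genes were read. Kit stood at 4.65 at day 10 and 5.04 at day 0 in LSK cells, against 1.94 at day 10 and 1.52 at day 0 in CD45-negative cells. Ptprc, the gene of CD45, stood at 4.25 at day 10 and 4.18 at day 0 in LSK cells, and at 5.58 at day 10 and 3.10 at day 0 in CD45-negative cells. At day 10 its level was thus higher in the cells labelled CD45-negative than in LSK cells, against their label, with a difference of -1.33 between LSK and CD45-negative cells. Of 10 reticular and stromal markers, 6 were above background in CD45-negative cells at day 10, against 9 at day 0, and Kitl was below it at both. Their summed linear level was 10.7 at day 10, against 120 at day 0. All 14 erythroid markers were above background in CD45-negative cells at both days, with a median level of 1.69 at day 10, against 6.42 at day 0. Of these 14, 13 could be compared between the days, and all 13 were at least 2-fold lower at day 10. Their summed linear level was 500 at day 10, against 2840 at day 0, sums limited by saturation of 1 marker at day 10 and of 4 at day 0. In LSK cells the median level was -0.83 at day 10, against -0.44 at day 0, and the summed level was 30.3 at day 10, against 50.1 at day 0, with 10 of the 14 above background at day 10 and 11 at day 0. Epb42, which encodes a red cell membrane protein, was below background on both LSK arrays. The library labelled CD45-negative at day 0 thus carried the most erythroid marker signal of the 4, and it is the day 0 side of every CD45-negative value below.

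Between the 2 CD45-negative arrays, the transferrin receptor differed most. Of the 8 genes, 7 could be measured, and Tfrc, Slc11a2, Steap3 and Ftl1 were at least 2-fold lower at day 10 while none was 2-fold higher. Among all 14440 genes measured on both arrays 17.5% were at least 2-fold lower and 23.7% were higher by that much, 41.1% together. The median difference of the 7 genes was -1.02, against 0.19 over all genes measured. Slc11a2, Steap3 and Ftl1 were instead higher at day 10 when the arrays were scaled on their spike-in controls. That scaling moved the median of all genes to 3.02 and the difference of Tfrc to -0.42, under 2-fold. Relative to the median of all genes, the difference was -3.43 for Tfrc, -1.76 for Slc11a2, -1.48 for Steap3 and -1.22 for Ftl1 under either of these scalings. Each scaling shifts an array by 1 constant, so these relative values are the same by construction and do not check the scaling. The erythroid and the stromal marker sums given above were also lower at day 10 on these arrays, and their part in the differences was not tested. In sorted bulk RNA, fewer cells of a type and less RNA per cell cannot be told apart.

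Trf encodes transferrin, the ligand of the route. It stood at 0.45 at day 10 and 0.54 at day 0 in LSK cells, and at -0.21 at day 10 and -0.92 at day 0 in CD45-negative cells. The day difference was -0.08 in LSK cells and 0.71 in CD45-negative cells, both under 2-fold. Trf was the only one of the 8 genes with both LSK levels above both CD45-negative levels. LSK cells were higher by 0.66 at day 10 and by 1.46, or 2.75-fold, at day 0. Scaled on the spike-in controls, LSK minus CD45-negative was -0.78 at day 10 and 2.92 at day 0. The day difference in CD45-negative cells was then 3.54. With normexp background correction LSK minus CD45-negative at day 0 was 0.84, under 2-fold.

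Tfrc encodes the transferrin receptor. Its level was 1.04 at day 10 and 1.31 at day 0 in LSK cells. In CD45-negative cells it was 2.90 at day 10 and 6.14 at day 0, the highest of the 4. The gap between the days in CD45-negative cells was -3.24, or 9.46-fold lower at day 10, and 2.39% of the genes measured had a lower difference. In LSK cells it was -0.27, beside an SD of 0.152 to 0.197 among repeated spots on those arrays. Before any scaling between arrays the spot read 492 ± 49.3 at day 10 and 493 ± 49.4 at day 0 in LSK cells, and 2352 ± 235 at day 10 and 8181 ± 818 at day 0 in CD45-negative cells (error as given by the scanner software for the single spot). LSK minus CD45-negative was -1.86 at day 10, or 3.63-fold lower in LSK cells, and -4.83 at day 0, or 28.5-fold lower. At day 0 only 0.787% of 14493 measured genes had a lower value of that difference.

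The promoter of Tfrc is shown because this gene differed most. RefSeq's promoter table (GRCm38.p6) held windows for 6 of the 8 genes, with no entry matched for Trf and Slc11a2. The stretch printed, chr16:32608646-32608925 on the plus strand, opens the first window and runs from 250 bases before the first annotated start to 30 after it. The capitals mark TGACGT, the core letters of the cAMP response element.
Tfrc promoter window: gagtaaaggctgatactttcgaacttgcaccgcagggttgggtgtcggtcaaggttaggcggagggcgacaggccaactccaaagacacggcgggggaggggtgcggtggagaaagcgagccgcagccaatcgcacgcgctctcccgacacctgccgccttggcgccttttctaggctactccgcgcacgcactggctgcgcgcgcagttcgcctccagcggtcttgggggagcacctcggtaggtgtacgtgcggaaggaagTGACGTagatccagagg
TGACGT was searched on both strands of the whole windows, which run past the stretch printed, and occurred in 7.51% of 32851 windows. Among the 11 windows of these genes it was present in the 2 overlapping windows of Tfrc. AGATAA, a motif of the erythroid factor Gata1, was in 11.2% of all windows and in 1 window of Steap3. TGATAA (9.05%), the Klf1 motif CCACACCC (3.56%), the E-box CACGTG (7.15%) and TGACNNNGC, of the antioxidant response element (12.4%), were in none of the 11. TATAA, in 24.9% of all windows, was in windows of Fth1, Ftl1 and Tfrc. These are matches of letters only.

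**Figure D1:**
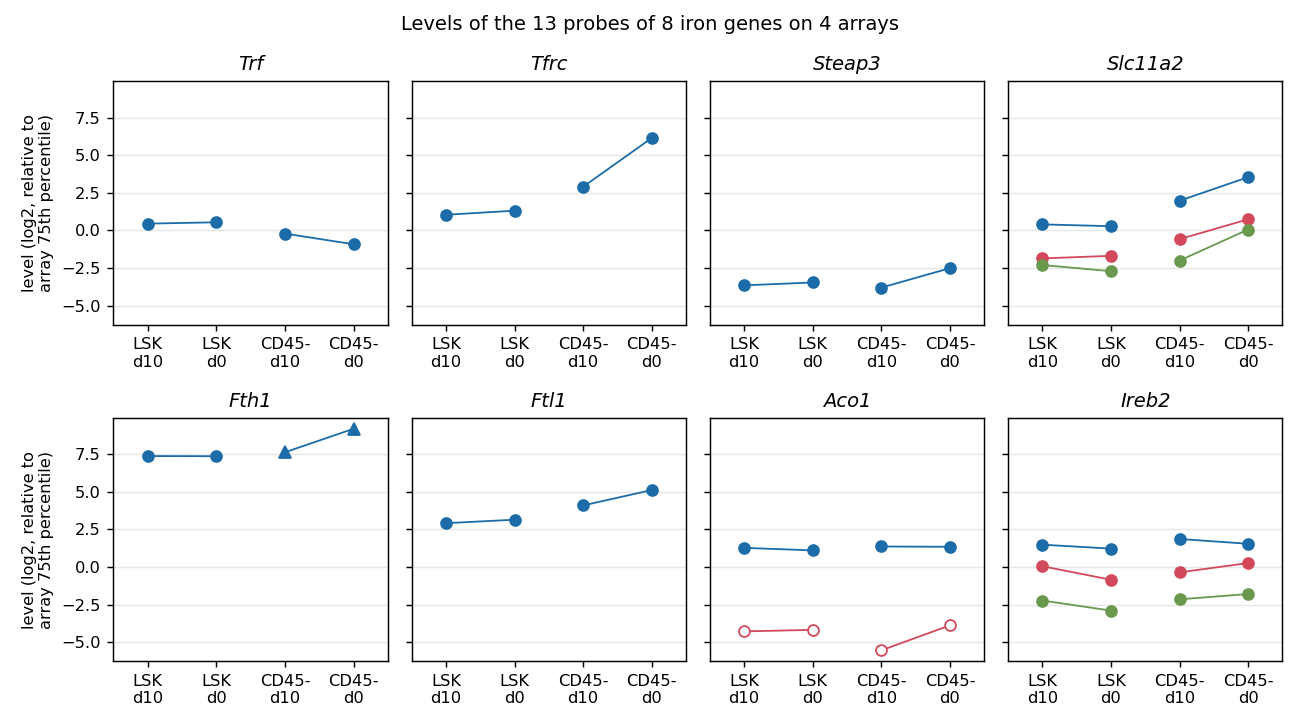
Level of each probe (vertical axis, log2 relative to the array's 75th percentile) on the 4 arrays, 1 panel per gene and 1 point per array, for LSK and then CD45-negative cells, each at day 10 (d10) and day 0 (d0). Blue is the probe that represents the gene, other colours are its other probes, open circles are not well above background and triangles are saturated; Tfrc runs from 1.04 in LSK cells at day 10 to 6.14 in CD45-negative cells at day 0.

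Steap3 encodes the endosomal ferrireductase of erythroid cells, which reduces the iron that transferrin has released. Its probe was dim on every array, with levels of -3.65 at day 10 and -3.46 at day 0 in LSK cells and of -3.80 at day 10 and -2.51 at day 0 in CD45-negative cells. The lowest level called above background was -4.12 at day 10 and -3.95 at day 0 on the LSK arrays, and -4.24 at day 10 and -3.15 at day 0 on the CD45-negative arrays. The day difference was -0.18 in LSK cells and -1.29, or 2.44-fold lower, in CD45-negative cells. The unscaled spot signals of that pair were 22.7 ± 4.58 at day 10 and 20.4 ± 3.63 at day 0. Before scaling, each of these 2 signals lay within the error of the other. Under quantile and cyclic loess normalization it was -0.89 and -0.69, short of 2-fold. LSK minus CD45-negative was 0.15 at day 10 and -0.95 at day 0.

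Slc11a2 encodes the divalent metal transporter DMT1, which carries the reduced iron out of the endosome. Probe 1 stood at 0.40 at day 10 and 0.28 at day 0 in LSK cells and at 1.97 at day 10 and 3.54 at day 0 in CD45-negative cells. In CD45-negative cells the day difference was -1.57 on probe 1 (2.96-fold lower), -1.31 on probe 2 and -2.06 on probe 3. In LSK cells the 3 probes gave 0.12, -0.16 and 0.41, with no common sign. All 3 probes were thus at least 2-fold lower at day 10 in CD45-negative cells and under 2-fold apart in LSK cells. LSK minus CD45-negative was -1.57 (2.97-fold lower) at day 10 and -3.26 (9.57-fold lower) at day 0 on probe 1. Probe 2 gave -1.28 at day 10 and -2.43 at day 0, and probe 3 gave -0.30 at day 10 and -2.78 at day 0. The unscaled signal of probe 1 was 1240 ± 124 at day 10 and 1352 ± 135 at day 0 in CD45-negative cells. Of the 3 probes, probe 2 is the one the array design assigns to another RefSeq transcript, so the probes need not read the same mRNA variants.

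Fth1 encodes the ferritin heavy chain, which oxidises iron as it enters the shell. In LSK cells the level was 7.38 at day 10 and 7.37 at day 0, a difference of 0.02. In CD45-negative cells the spot was saturated on both arrays, reading 7.63 at day 10 and 9.19 at day 0, so the days cannot be compared there. LSK cells were at least 1.19-fold lower at day 10 and at least 3.54-fold lower at day 0, with the saturated side taken at its reading.

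Ftl1 encodes the ferritin light chain, which helps iron form the mineral core. Its level was 2.92 at day 10 and 3.15 at day 0 in LSK cells, and 4.10 at day 10 and 5.12 at day 0 in CD45-negative cells. The day difference was -0.23 in LSK cells and -1.02 in CD45-negative cells, just past 2-fold, and it fell short of that under quantile (-0.87) and cyclic loess (-0.96) normalization, normexp background correction (-0.67) and the median shift (-0.56). The unscaled Ftl1 spot read 5393 ± 539 at day 10 and 4033 ± 403 at day 0 in CD45-negative cells, higher at day 10. LSK minus CD45-negative was -1.18 (2.26-fold lower) at day 10 and -1.97 (3.91-fold lower) at day 0. The mouse genome holds many near-copies of the light chain gene, and the array design lists some with this probe, so its signal may be shared. The 4 probes of other light-chain-like entries unsaturated on all arrays, for LOC434624, LOC630762 and Gm5213 (2 probes), were also lower at day 10 in CD45-negative cells, with differences of -1.30, -0.72, -1.63 and -1.45. In LSK cells they differed by -0.06, 0.09, -0.17 and -0.06. Between the populations at day 10 they did not all follow Ftl1: LSK minus CD45-negative was 0.00, -0.46, 0.65 and 0.46. The longest run of bases that these 4 probes share with the Ftl1 probe is 5 or 6. Whether they also read Ftl1 mRNA was not tested.

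Aco1 encodes IRP1, which is a cytosolic aconitase while it holds an iron-sulphur cluster and an RNA-binding regulator without it. Its brighter probe stood at 1.28 at day 10 and 1.11 at day 0 in LSK cells and at 1.37 at day 10 and 1.35 at day 0 in CD45-negative cells. The 4 levels spanned 0.26, the smallest range of the 8 genes. The day differences were 0.17 in LSK cells and 0.03 in CD45-negative cells. The second Aco1 probe was not well above background on any array.

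Ireb2 encodes IRP2, the regulator that is degraded when iron is plentiful. Probe 1 stood at 1.49 at day 10 and 1.23 at day 0 in LSK cells and at 1.87 at day 10 and 1.55 at day 0 in CD45-negative cells. The day difference of the 3 probes was 0.26, 0.90 and 0.67 in LSK cells, the same sign each time. In CD45-negative cells it was 0.32, -0.62 and -0.35, so the sign depended on the probe. None of these reached 2-fold. LSK minus CD45-negative at day 0 was -0.32 on probe 1 and -1.11 and -1.10 on the other 2, and at day 10 it was -0.37, 0.41 and -0.08.

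**Figure D2:**
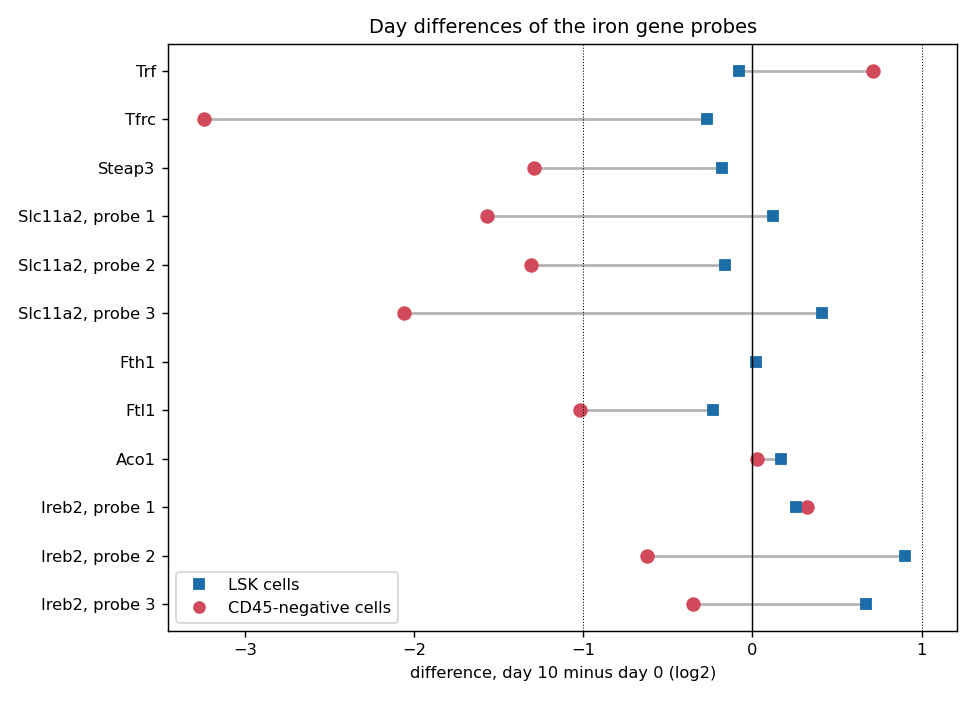
Difference between day 10 and day 0 (horizontal axis, log2) for each probe well above background on all 4 arrays, with squares for LSK cells and circles for CD45-negative cells. Dotted lines mark 2-fold; no circle is drawn for Fth1, which was saturated there. The LSK squares lie between -0.27 and 0.90, and the circle of Tfrc lies at -3.24.

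In LSK cells none of the 8 genes differed by 2-fold between the days, and the median difference was -0.03, against 0.00 over all genes. Of the 16185 genes measured on both arrays 1.46% were 2-fold higher or more and 2.71% were 2-fold lower or more, 4.17% together. The differences of the 8 genes ran from -0.27 for Tfrc to 0.26 for Ireb2.

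Between the populations, Tfrc, Slc11a2 and Ftl1 were at least 2-fold lower in LSK than in CD45-negative cells at day 10, and none was 2-fold higher. At that day 12.9% of 15571 measured genes were at least 2-fold lower in LSK cells and 11.2% were higher by that much, 24.1% together. At day 0 Fth1 joined these 3 genes, as a bound, and Trf was 2-fold higher in LSK cells. Among all genes at day 0, 17.7% were lower and 21.9% higher, 39.6% together. The median over the 8 genes was -0.31 at day 10 and -1.39 at day 0, against -0.02 at day 10 and 0.09 at day 0 over all genes. Scaled on the spike-in controls, 3 of the 8 genes were at least 2-fold higher in LSK cells at day 0. A further 2 were at least 2-fold lower, and the median was 0.07. Under that scaling 10071 of 14493 measured genes were at least 2-fold higher and 702 lower by that much, with a median of 1.55. Relative to the median of all genes, that of the 8 genes was -1.48 under either scaling, which is so by construction. On the spike-in scale Tfrc (-3.37) and Slc11a2 (-1.80) were still 2-fold lower, whereas Ftl1 (-0.51) was less than 2-fold apart. Fth1 read -0.36, a bound because its CD45-negative spot was saturated, so its gap may be larger. The levels of Tfrc, Ftl1 and Slc11a2 had CD45-negative cells at day 0 highest and CD45-negative cells at day 10 next, with the LSK arrays below. Fth1 had both LSK levels below both saturated CD45-negative readings, which have no order between them. The 2 LSK levels of these 4 genes lay 0.02 to 0.27 apart. The erythroid marker sum was lower in LSK than in CD45-negative cells at both days, as given above.

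The other genes of iron handling were read from a list of 68 genes, all on the array. In CD45-negative cells 50 of them could be measured, of which 24 were at least 2-fold lower at day 10, 6 at least 2-fold higher and 20 less than 2-fold apart, beside 17.5% lower and 23.7% higher among all genes measured. Their median difference was -0.89. Scaled on the spike-in controls, under which 13233 of 14440 measured genes were higher at day 10 by 2-fold or more, 32 of the 50 were higher and 3 lower by that much. Their median relative to that of all genes was -1.08 under both scalings, which is so by construction. The counts by role that follow are on the 75th percentile scale and are read against the same 2 shares of all genes. In LSK cells 54 were measured, 2 were at least 2-fold higher at day 10 and none was 2-fold lower, with a median of 0.04. That is near the background, where 4.17% of all genes were 2-fold apart.

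All 18 genes of mitochondrial iron import and iron-sulphur cluster assembly were measured in CD45-negative cells. At day 10, 10 were at least 2-fold lower and 1 higher, against 17.5% lower and 23.7% higher over all genes, and the median was -1.27. Abcb10, a mitochondrial transporter needed for haem synthesis in erythroid cells, was lower at day 10 (-4.57), at -0.71 at day 10 and 3.86 at day 0. Slc25a37, the mitoferrin that brings iron into the mitochondria of erythroblasts, was at least 13.4-fold lower, its spot being saturated at day 0. Isca1, an iron-sulphur assembly protein, differed by -3.73, and Slc25a38, which imports glycine for haem synthesis, by -3.34. Fdx1, a ferredoxin, was higher by 1.87. In LSK cells none of the 18 reached 2-fold, and Glrx5, a glutaredoxin of cluster assembly, differed by -0.59.

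Among the 10 measured genes of haem uptake, breakdown and recycling, 5 were at least 2-fold lower at day 10 in CD45-negative cells and 2 higher, against the same 17.5% and 23.7%. Abcg2, which exports porphyrins and haem, differed by -3.97, Blvrb, a biliverdin reductase abundant in red cells, by -3.37, and Slc48a1, which moves haem out of the endolysosome, by -2.74. Hmox2, the constitutive haem oxygenase, was higher by 2.01. Flvcr1, described as a haem exporter, was higher by 1.07. Of the 5 further mRNAs listed as carrying iron-responsive elements, Alas2, which starts haem synthesis in erythroid cells, was at least 45.7-fold lower with its day 0 spot saturated, and Cdc42bpa, a kinase, differed by -2.81. Alas2 is also one of the erythroid markers. In LSK cells no gene of either list reached 2-fold, and the largest differences were 0.71 for Lrp1, a receptor for haem-bound haemopexin, and 0.82 for Epas1, the hypoxia factor HIF-2 alpha.

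Of the genes for storage and iron chaperones, 2 of 6 measured were at least 2-fold lower at day 10 in CD45-negative cells and none was higher by that much, against 17.5% and 23.7% of all genes. Ncoa4, the receptor that delivers ferritin for degradation, differed by -2.55, at 3.12 at day 10 and 5.67 at day 0, with its 3 probes between -2.94 and -2.55. Herc2, a ubiquitin ligase reported to act on Ncoa4, differed by -2.75 on its brighter probe and -1.19 on the other. Fbxl5, the iron-sensing adaptor that marks IRP2 for degradation, was higher by 0.99, just under 2-fold. In LSK cells Fbxl5 differed by 0.51 and Pcbp2, an iron chaperone, by 0.47.

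Of the 5 measured genes of iron export and the hepcidin axis, 3 were at least 2-fold lower at day 10 in CD45-negative cells and 1 higher, against 17.5% and 23.7% of all genes, and the median was -1.59. The lower ones were Erfe, the erythroblast hormone that lowers hepcidin (-2.10), Slc40a1, the iron exporter ferroportin (-1.96), and Neo1, a co-receptor of the pathway (-1.59). Smad4, its shared signal transducer, was higher by 1.71. Tmprss6, a protease that restrains hepcidin, was at least 11.4-fold lower and Cp, the ferroxidase ceruloplasmin, at least 6.84-fold lower, both being below background at day 10. In LSK cells Hamp2, a hepcidin gene, was at least 3.29-fold higher at day 10, being below background at day 0.

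Other uptake genes went both ways. In CD45-negative cells Tfr2, the second transferrin receptor, differed by -2.66 and Slc39a8, a metal importer, by -2.11, both lower at day 10. Ltf, the iron-binding lactoferrin of neutrophil granules, was higher by 2.09 in CD45-negative cells and by 1.56 in LSK cells. Lcn2, a neutrophil protein that binds siderophores, was higher by 1.89 in CD45-negative cells and by 1.29 in LSK cells. Ltf also belongs to the 8 neutrophil markers, whose median level was 4.74 at day 10 and 3.12 at day 0 in LSK cells, and 6.11 at day 10 and 4.64 at day 0 in CD45-negative cells. Of the 7 of them measured in CD45-negative cells, 5 were at least 2-fold higher at day 10 and none was 2-fold lower. Their summed linear level was 467 at day 10 and 393 at day 0 in LSK cells, and 751 at day 10 and 1030 at day 0 in CD45-negative cells, and saturation limits it, of S100a9 on every array but LSK day 0 and also of S100a8 at day 10 in CD45-negative cells. The part of these markers in the values of Ltf and Lcn2 was not tested. Steap4, a ferrireductase, was at least 3.44-fold higher at day 10 in CD45-negative cells, being below background at day 0.

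**Figure D3:**
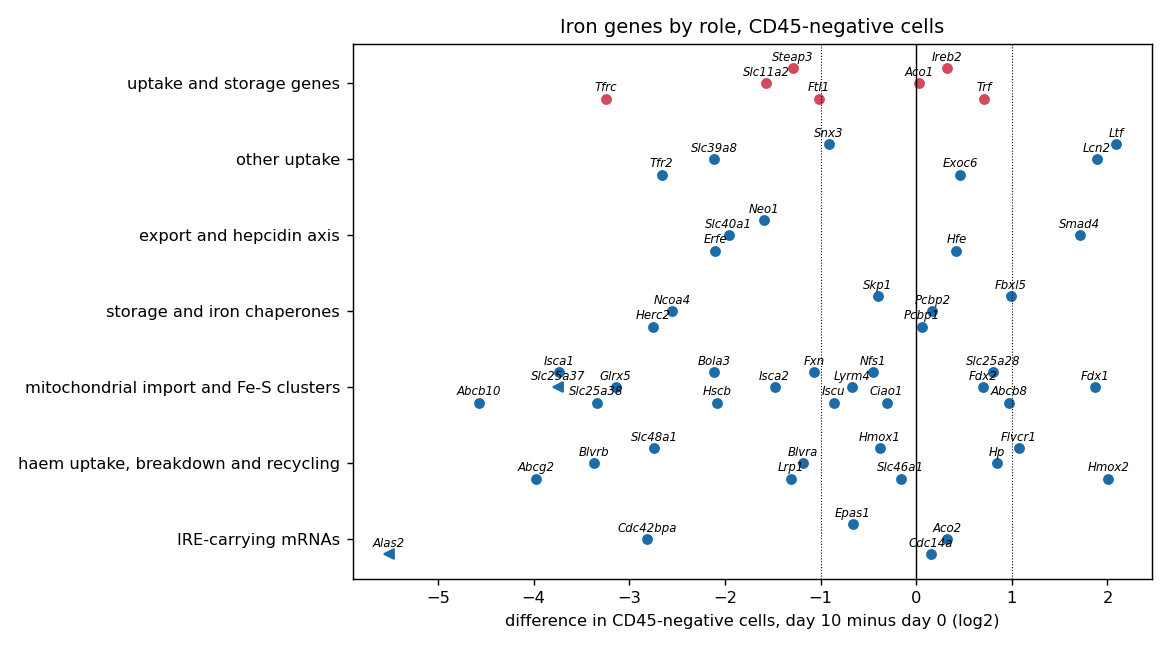
Difference between day 10 and day 0 in CD45-negative cells (horizontal axis, log2) for measured genes, 1 row per role, with the uptake and storage genes in red and genes of the list of 68 in blue. Dotted lines mark 2-fold and triangles are genes saturated on 1 array, whose difference is a bound; the points run from -5.51 for Alas2 to 2.09 for Ltf.

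The genes whose levels over the 4 arrays were most like those of each iron gene were found among 10195 genes above background and unsaturated on all 4. Likeness was the mean absolute difference after each gene was centred on its own mean. For Tfrc these were Blvrb at 0.125, Marchf2, a membrane-bound ubiquitin ligase, at 0.152 and Aqp1, the water channel of red cells, at 0.152, and 18 genes lay within 0.25. For Slc11a2 they were E2f2, a cell cycle transcription factor, at 0.04, St3gal6, a sialyltransferase, at 0.0465 and Cdkn3, a phosphatase of the cell cycle, at 0.0774, with 51 genes within 0.25. For Ftl1 they were Klf5, Tatdn1 and Lnpk, with 251 genes within 0.25. The flat profile of Aco1 had 2144 such genes. With 4 points these likenesses describe the arrays only.

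**Figure D4:**
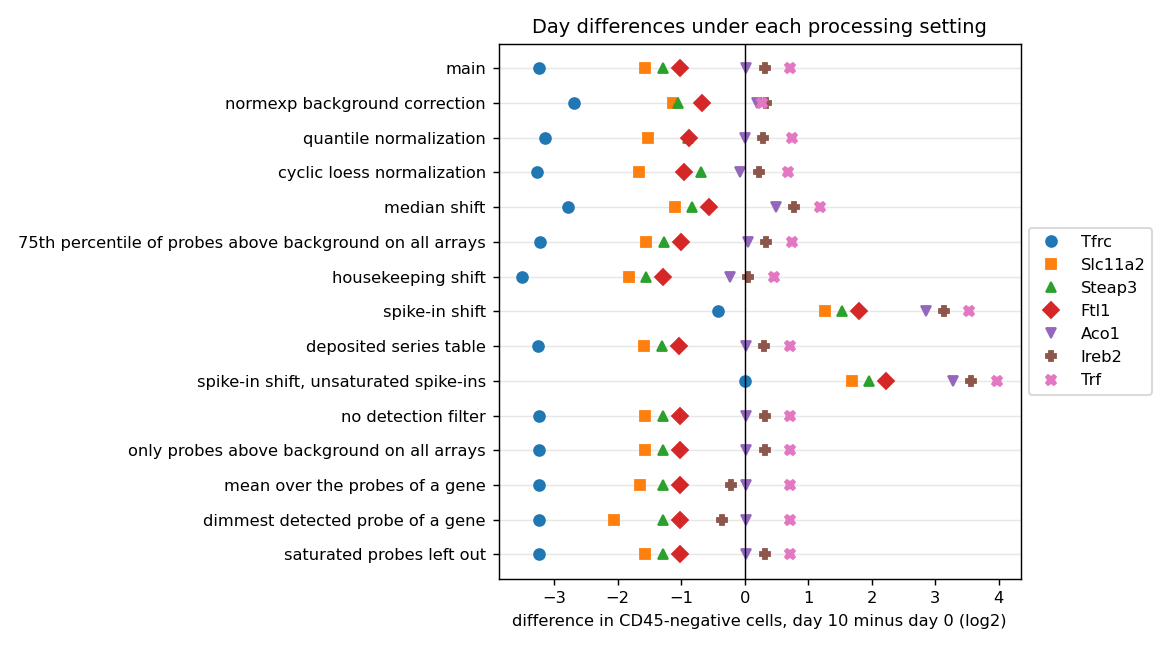
Difference between day 10 and day 0 in CD45-negative cells (horizontal axis, log2) of 7 iron genes under the processing as reported (main, top row) and 14 alternatives, 1 row each and 1 symbol per gene. The spacing and order of the symbols change in some rows: Steap3 lies at -1.29 and Ftl1 at -1.02 in the main row, against -0.69 and -0.96 under cyclic loess. Both rows of spike-in scaling lie to the right of the others, with Tfrc at -0.42 and 0.01.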

How the data were processed

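RNA of 4 sorted cell samples was labelled with Cy3 by oligo-dT priming, per the labels, and hybridised to Agilent mouse arrays. Per the file headers, the authors' scans were processed with Agilent Feature Extraction 10.5.1.1 on a design annotated to mm9, and the deposited spot files hold fluorescence intensity: a raw mean and background, and a processed signal with background subtracted and spatial trends removed. Their flags for detection, saturation and outliers are no signals (unit: other). A series table deposited by the authors gives log2 values; at least 99.977% of them lie within 0.001 of the log2 processed signal shifted by 1 constant per array. The authors' centring is otherwise not given in the sources used here; its column medians were -3.29 at day 10 and -3.22 at day 0 for LSK cells, and -3.71 at day 10 and -3.24 at day 0 for CD45-negative cells.

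Control and outlier spots were removed, spots of a probe averaged, and the array's 75th percentile subtracted from the log2 signal (R 4.3.3, limma 3.58.1, Python 3.11.15, pandas 2.3.3). Symbols were updated by RefSeq accession for 28081 of 40557 gene probes (69.2%). A gene with several probes was read from the brightest one, on average over all arrays. A fold was measured where both arrays were well above background, and was a bound where 1 was below it or saturated. With 1 array per group no test was run; a model of population and day with 1 residual degree of freedom was not fitted. On arrays simulated from the mean levels of the LSK day comparison, 98% of 100 probes shifted by 1.5 log2 units were counted. Of 40357 unchanged probes 0.0124% were. These shares describe that simulation only. With 1 array per group the rate of false counts in the data is not known. Precision is limited by the number of arrays.

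The 8 genes, the list of 68, the marker lists, the thresholds and the alternatives were chosen with earlier results of these data known. The rule for names gave all 8 genes; per role and day comparison up to 3 listed genes with the largest measured difference and up to 2 bounds; for each of the 8 genes the 3 most alike; the brightest markers; and Ptprc, Kit and Ly6a. Fdx1, Hmox2, Flvcr1, Neo1 and the ferritin-like genes were named after their values were seen. Some genes are not reported here by name. Alternatives were normexp background correction (offset 50), quantile and cyclic loess normalization, shifts by the median, by probes detected on all arrays, by 11 housekeeping genes and by 8 spike-in probes, the deposited table, detection filters, other probes per gene, saturated probes left out and a 1.5-fold threshold. A shift by the 5 unsaturated spike-in probes was chosen after seeing the data.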

Additional observations from a re-analysis of the deposited data

Results flagged for a closer look

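Slc11a2 differed between the days in opposite directions in the 2 populations: 0.12 in LSK cells and -1.57 in CD45-negative cells on its brightest probe. The difference between the populations was not tested, since each value comes from 2 arrays. In LSK cells the other probes gave -0.16 and 0.41, so the sign was not the same on every probe. The value of 0.12 is also below the SD of 0.152 to 0.197 among repeated spots on the LSK arrays.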

How the results depend on the processing

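In CD45-negative cells the day differences of Tfrc, Slc11a2, Steap3 and Ftl1 stayed negative under the 12 alternatives other than the spike-in shifts, between -3.50 and -2.69 for Tfrc, -2.06 and -1.10 for Slc11a2, -1.55 and -0.69 for Steap3 and -1.28 and -0.56 for Ftl1. The spike-in shift turned them to 1.54 for Steap3, 1.26 for Slc11a2 and 1.80 for Ftl1, and left Tfrc at -0.42. With unsaturated spike-ins, chosen after seeing the data, they were 0.01 for Tfrc, 1.96 for Steap3, 1.69 for Slc11a2 and 2.23 for Ftl1. By construction such a shift moves all genes of an array alike. The median of all genes in this comparison was 0.19 as reported, 3.02 and 3.45 under the spike-in shifts and 0.66 under the median shift. The share of higher genes among those at least 2-fold apart was 57.5% as reported, 98.4% and 99% under the spike-in shifts, 76.7% under the median shift, 43% under the housekeeping shift and 30.6% with no detection filter. In LSK cells it was 35% as reported, 45.6% under the median shift and 16.1% with unsaturated spike-ins. For LSK against CD45-negative cells at day 10 it was 46.6% as reported, 18% under the median shift, 59.4% under the housekeeping shift, 62.5% with no detection filter and 1.49% and 0.922% under the spike-in shifts, and at day 0 55.3% as reported, against 93.5% and 95.2% under the spike-in shifts.

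The number of the 8 genes at least 2-fold apart between the days in CD45-negative cells was 4 as reported, all lower at day 10, and 2 under quantile and cyclic loess normalization. It was 6, all higher at day 10, under both spike-in shifts, 3 under the median shift (1 higher and 2 lower) and 3, all lower, under normexp. Of all 14440 genes measured, 3417 were 2-fold higher and 2523 lower as reported, and 3591 and 2179 under quantile normalization. Cyclic loess gave 3518 and 2249, the spike-in shift 13233 and 213, and unsaturated spike-ins 13620 and 139. The median shift gave 5450 and 1651, and normexp 2881 and 1930. Between the populations at day 10 the number of the 8 genes apart was 3 as reported, 7 under the spike-in shift and 8 with unsaturated spike-ins. Of all 15571 genes measured there, 1747 were 2-fold higher in LSK cells and 2001 lower as reported. These became 168 and 11092 under the spike-in shift, and 117 and 12573 with unsaturated spike-ins. At day 0 the 1 higher and 4 lower of the 8 genes became 3 higher and 2 lower under both spike-in shifts. Among all 14493 genes measured at day 0, 3171 higher and 2566 lower became 10071 and 702 under the spike-in shift. With unsaturated spike-ins they became 11202 and 560. Of the 68 listed genes, 24 lower and 6 higher between the days in CD45-negative cells became 3 lower and 32 higher under the spike-in shift, and 2 lower and 37 higher with unsaturated spike-ins. Between the populations 14 of the listed genes were 2-fold apart at day 10 as reported, 22 under the median shift, 42 under both spike-in shifts and 28 at 1.5-fold. Of all 15571 genes measured, 843 were higher in LSK cells and 3850 lower under the median shift. At 1.5-fold 3571 were higher and 3862 lower. Between the days in LSK cells 2 of the listed genes were apart as reported, 5 with no detection filter, 4 with the dimmest detected probe and 9 at 1.5-fold. Of all 16185 genes measured, 236 were higher at day 10 and 439 lower as reported, and 1018 and 1228 at 1.5-fold. With no detection filter 1451 and 1958 of 29319 were, and with the dimmest detected probe 286 and 428 of 15727. Apart from the settings' own construction, the cause was not tested. No paired analysis was possible because each group has 1 array and the labels give no replicate numbers. Signal over background limits Steap3, and saturation limits Fth1.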

Other observations

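Markers of other blood cells also differed between the arrays beside which the iron genes were read. T and NK cell markers had a summed linear level of 15.7 at day 10 and 19.8 at day 0 in LSK cells, and 65 at day 10 and 2.02 at day 0 in CD45-negative cells. Plasma cell markers summed to 11.3 at day 10 and 203 at day 0 in LSK cells, and to 214 at day 10 and 3.83 at day 0 in CD45-negative cells. Macrophage markers, of cells that recycle the iron of red cells, summed to 13.1 at day 10 and 9.47 at day 0 in LSK cells, and to 4.02 at day 10 and 6.05 at day 0 in CD45-negative cells, with Cd163, C1qa and Mertk below background on both CD45-negative arrays. Stem and progenitor markers summed to 130 at day 10 and 153 at day 0 in LSK cells, and to 17.4 at day 10 and 8.27 at day 0 in CD45-negative cells. Ly6a, the gene of Sca-1, was higher by 3.24 at day 10 in CD45-negative cells, at 3.44, against 0.20 at day 0, and it stood at 2.86 at day 10 and 2.98 at day 0 in LSK cells.

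Fthl17, a ferritin heavy-chain-like gene, differed by -1.49 between the days in CD45-negative cells, at 2.70 at day 10 and 4.20 at day 0. In LSK cells it stood at 4.04 at day 10 and 4.64 at day 0, a difference of -0.60. Unlike the Fth1 probe, its probe was unsaturated on all 4 arrays.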
